A study of Mus musculus with 12 samples.

Results

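The genes described here encode the effector proteins of the neutrophil: its granule proteins, its cytosolic calcium-binding proteins, the enzyme complex that generates superoxide, and the surface receptors through which the cell is called to a site of infection. The list holds 36 genes chosen by name, of which 30 had a probe set assigned to that gene alone. Ly6g, Stfa1, Cd63, Prss57, Fpr1 and Retnlg had none and were not analysed here. Of the 30, 28 lay above the filter on low values and were tested among 12918 genes; Ltf and Cd177 lay below it.

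Expression was measured on 12 Affymetrix mouse arrays, 1 per sample, in primitive progenitors sorted from normal mouse bone marrow by the presence of c-Kit and Sca-1 and the absence of Flt3 and lineage markers. INV16 (4 arrays, replicates 1 to 4) carried a retrovirus with the leukaemia fusion of CBFB and the smooth-muscle myosin MYH11. ACD mutant (3 arrays, replicates 1 to 3) carried the fusion deleted of its assembly competent domain, described by the submitters as non-leukemogenic, and MIB control (5 arrays, replicates 3 to 7) carried the empty vector. All 3 groups were cultured with stem cell factor and interleukin 6 for 24 h before a 4 h exposure to virus and for 20 h after it, and the transduced cells were then sorted as GFP-positive populations, not clones. The labels used here give no strain, sex or age of the mice. Sorting, transduction and hybridisation were repeated for every replicate. In such bulk samples, fewer cells of a kind and less RNA per cell cannot be told apart.

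Neutrophils fill their granules in waves. Promyelocytes make the primary (azurophil) granules with myeloperoxidase and serine proteases, myelocytes make the specific granules with lactoferrin and the lipocalin Lcn2, and later stages make the gelatinase granules, S100 proteins and chemoattractant receptors. The oxidase is assembled at the membrane from a flavocytochrome and a set of cytosolic subunits. Transcription of many of these genes depends on PU.1, C/EBP factors and RUNX1, the DNA-binding partner of CBFB.

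Promoter sequences of the members that passed a test below, and of S100a9, whose product pairs with that of S100a8, show which of these factors' motifs lie near their start sites. They come from RefSeq (GRCm38.p6) and run 5′ to 3′ on the gene's strand from 250 bases before to 50 after the start of transcription. Capitals mark matches on either strand to the RUNX core TGTGGT, the C/EBP motif TTGCNNAA or the PU.1 core GAGGAA, and no match shown overlaps another. Ncf4, which also passed a test, has no entry in the promoter table, and Ffar2 is shown at the first of its 4 listed starts.
S100a8: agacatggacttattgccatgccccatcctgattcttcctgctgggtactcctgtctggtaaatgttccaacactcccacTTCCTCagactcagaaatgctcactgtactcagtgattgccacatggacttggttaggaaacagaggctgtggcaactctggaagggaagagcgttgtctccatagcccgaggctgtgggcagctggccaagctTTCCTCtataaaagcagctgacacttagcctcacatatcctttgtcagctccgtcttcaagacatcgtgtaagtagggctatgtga
S100a9: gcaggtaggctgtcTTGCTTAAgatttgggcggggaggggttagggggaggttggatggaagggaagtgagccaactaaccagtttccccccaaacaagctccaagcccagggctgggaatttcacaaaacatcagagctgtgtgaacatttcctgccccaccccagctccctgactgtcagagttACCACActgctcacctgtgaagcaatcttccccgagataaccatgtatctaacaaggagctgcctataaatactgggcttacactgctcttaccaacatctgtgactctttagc
Ffar2: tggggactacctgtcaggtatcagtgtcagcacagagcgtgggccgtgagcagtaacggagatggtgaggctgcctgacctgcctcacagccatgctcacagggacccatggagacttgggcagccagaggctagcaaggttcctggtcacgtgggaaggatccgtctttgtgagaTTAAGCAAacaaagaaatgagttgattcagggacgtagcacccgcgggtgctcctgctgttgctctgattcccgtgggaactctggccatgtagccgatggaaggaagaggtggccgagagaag
Adgrg3: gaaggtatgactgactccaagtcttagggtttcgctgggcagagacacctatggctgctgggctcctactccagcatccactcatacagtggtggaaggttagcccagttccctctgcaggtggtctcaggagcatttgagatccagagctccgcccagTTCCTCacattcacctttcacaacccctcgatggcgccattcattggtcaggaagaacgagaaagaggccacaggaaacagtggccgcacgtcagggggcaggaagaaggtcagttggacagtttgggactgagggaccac
Cxcr2: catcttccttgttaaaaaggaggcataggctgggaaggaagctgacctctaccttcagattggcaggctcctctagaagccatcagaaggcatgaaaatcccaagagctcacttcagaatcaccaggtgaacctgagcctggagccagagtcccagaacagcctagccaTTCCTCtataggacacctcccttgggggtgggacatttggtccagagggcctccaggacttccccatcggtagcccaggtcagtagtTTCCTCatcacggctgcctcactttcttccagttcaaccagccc
Padi4: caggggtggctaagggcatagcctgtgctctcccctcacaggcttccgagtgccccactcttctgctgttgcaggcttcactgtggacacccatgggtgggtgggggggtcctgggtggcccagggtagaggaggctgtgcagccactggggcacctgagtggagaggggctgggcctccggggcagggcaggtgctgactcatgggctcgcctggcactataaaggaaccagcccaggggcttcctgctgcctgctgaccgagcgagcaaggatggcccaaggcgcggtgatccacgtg
The S100a8 promoter, on chr3:90668821-90669120 (plus strand), holds the PU.1 core in reverse at -170 and at -36, counted from the start site. S100a9 is its next coding neighbour and lies on the opposite strand (chr3:90695672-90695971). Its promoter holds a C/EBP match at -236 and a reversed RUNX core at -64, and no PU.1 core. Ffar2 (chr7:30823726-30824025, minus strand) has a reversed C/EBP match at -74. Adgrg3 (chr8:95017442-95017741, plus strand) has a reversed PU.1 core at -91, and Cxcr2 (chr1:74153744-74154043, plus strand) has it at -81 and 7. Of the other Ffar2 starts, the second listed holds a RUNX core and the remaining ones a PU.1 core, each with a C/EBP match. In Padi4 (chr4:140774154-140774453, minus strand) none of these letters occurs.

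Promoters of the primary granule proteases are given too, whose transcripts did not pass the test in any comparison. Not passing does not set them apart from the genes above. Elane differed by -1.27 (SE 0.42) in INV16 against MIB control, and the called Adgrg3 by -1.20 (SE 0.14). Elane and Prtn3 are coding neighbours on chromosome 10, and Ctsg lies on chromosome 14.
Elane: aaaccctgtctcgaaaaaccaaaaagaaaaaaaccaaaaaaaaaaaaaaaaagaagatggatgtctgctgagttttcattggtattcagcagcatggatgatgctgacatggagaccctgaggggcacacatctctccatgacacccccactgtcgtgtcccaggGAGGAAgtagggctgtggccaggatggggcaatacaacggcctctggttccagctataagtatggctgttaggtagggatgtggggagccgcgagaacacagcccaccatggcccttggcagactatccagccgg
Prtn3: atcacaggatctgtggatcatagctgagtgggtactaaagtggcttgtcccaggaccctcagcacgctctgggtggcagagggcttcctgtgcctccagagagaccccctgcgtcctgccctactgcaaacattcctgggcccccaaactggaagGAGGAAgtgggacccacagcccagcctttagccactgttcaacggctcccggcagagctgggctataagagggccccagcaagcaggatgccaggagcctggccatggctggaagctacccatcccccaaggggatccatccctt
Ctsg: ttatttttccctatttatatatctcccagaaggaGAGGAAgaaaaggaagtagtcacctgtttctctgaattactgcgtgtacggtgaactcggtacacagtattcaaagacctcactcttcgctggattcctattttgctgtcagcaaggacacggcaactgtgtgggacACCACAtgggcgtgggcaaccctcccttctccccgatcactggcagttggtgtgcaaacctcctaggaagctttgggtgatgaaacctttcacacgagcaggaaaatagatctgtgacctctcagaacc
Elane (chr10:79886062-79886361, plus strand) and Prtn3 (chr10:79879417-79879716, plus strand) each hold the PU.1 core once, at -85 and at -95. Ctsg (chr14:56102525-56102824, minus strand) holds it at -216 and a reversed RUNX core at -79. Of 28 measured members with a listed promoter, the RUNX core was in 7 (25.0%), the C/EBP motif in 10 (35.7%) and the PU.1 core in 18 (64.3%). Among the first listed promoters of 27025 genes of the table the shares were 16.9%, 10.8% and 28.3%. A match is a description of these letters and no evidence of binding.

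The arrays differed in ways that bear on the members. INV16 replicate 4 correlated at 0.895 to 0.917 with the other arrays and is set apart throughout. MIB control replicate 6 was the highest of the 5 MIB control arrays in 23 of 28 members, whereas it was the highest in 19.9% of all genes tested. BioC minus BioB, a pair of spiked bacterial controls, came to 1.07 to 1.21 log2 on INV16 replicates 1 to 3 and MIB control replicates 3 to 5, and to -0.11 to 0.07 on the other 6 arrays. This split is treated as a batch, so INV16 replicates 1 to 3 and the ACD mutant lay wholly in different batches. Gapdh 3′ minus 5′ signal, a measure of RNA quality, was 1.10 to 1.53 log2 on INV16 replicates 1 to 3, 1.63 to 3.17 on the ACD mutant and 1.34 to 1.76 on MIB control, and 3.64 on INV16 replicate 4. Its part in the differences below was not tested. Of the sort markers, Kit, the gene of c-Kit, measured 10.26 to 11.43 on all 12 arrays. Flt3, whose surface product the sort excluded, nevertheless measured 7.70 to 9.76, and the gene of Sca-1 was not analysed here. Cd34, a progenitor marker the sort did not use, measured 7.39 on INV16 replicate 4 and 11.15 to 12.35 on the other 11 arrays. Itgam, which encodes a lineage marker of mature myeloid cells, measured 4.11 to 5.33. Values are log2 units as deposited, and the number of arrays limits their precision. Low values may be compressed, which was not tested, so the size of differences of dim genes is less sure.

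**Figure D1:**
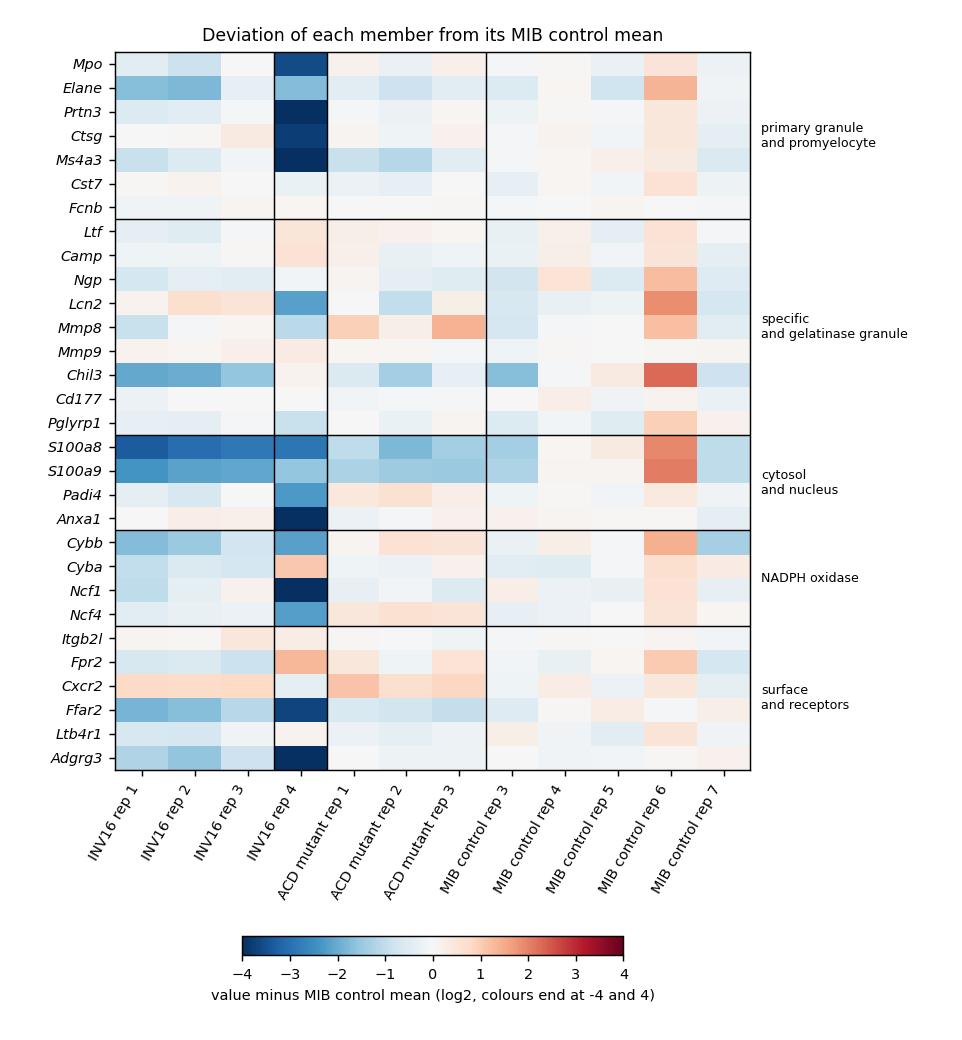
Deviation of each of the 30 measured members (rows, by role) from its MIB control mean on each of 12 arrays (columns, INV16 at the left, then ACD mutant, then MIB control), in log2 units; blue is lower and red higher, and colours end at -4 and 4. S100a8 and S100a9 are blue on every INV16 and ACD mutant array, and the MIB control replicate 6 column is red for most members.

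INV16 against MIB control addresses the early effect of the fusion. Of the members, 3 were lower in INV16: the calprotectin subunit S100a8, the short-chain fatty acid receptor Ffar2 and the adhesion G-protein-coupled receptor Adgrg3. No member was called higher. In limma fitted to 11 arrays without INV16 replicate 4, 0 of 28 members were called higher and 3 lower at an adjusted p under 0.05, with 0.627% and 1.07% of all genes called in these directions. At unadjusted p under 0.05, 11 were lower and 1 higher, beside 10.1% and 5.65% of all genes. The median log2 difference was -0.37 over the 28 members and -0.03 over all genes tested, and 21 of 28 members had a difference below 0, as did 56.3% of all genes. A difference of 1 log2 or more downward was found in 7 members, beside 0.317% of all genes. With all 12 arrays 0 members were called in any of the 3 comparisons, beside 0.155% of all genes in INV16 against MIB control, 0% in the ACD mutant against MIB control and 0.0387% in INV16 against the ACD mutant.

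S100a8 and S100a9 form the heterodimer calprotectin, a zinc- and calcium-binding complex that fills the cytosol of mature neutrophils. S100a8 measured 5.03, 5.30 and 5.48 in INV16 replicates 1 to 3 and 5.45 in replicate 4, against 6.97, 8.42, 8.72, 10.28 and 7.34 in MIB control replicates 3 to 7. Every INV16 array lay below every MIB control array, and the MIB control arrays themselves spread over more than 3 log2 units. Its mean was 5.27 ± 0.23 on INV16 replicates 1 to 3 and 8.35 ± 1.30 on the 5 MIB control arrays (SD), which gives an 8.44-fold lower value in INV16 (log2 difference -3.08, SE 0.55, limma adjusted p = 0.0144). The INV16 values lay near the filter of 5.10 and below the array medians of 5.62 to 5.79, and the files give no background measure, so the fold is only as sure as values at the low end of the scale. The size was smaller without the highest MIB control array, replicate 6 (-2.59, limma adjusted p = 0.0066). The call was lost without INV16 replicate 1 (-2.96, limma adjusted p = 0.101) or INV16 replicate 2 (-3.09, adjusted p = 0.062), and with all 12 arrays (-3.03, adjusted p = 0.0585). Its probe set carries the suffix that Affymetrix gives to sets able to match several transcripts.

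S100a9 followed the same order of groups without passing. It measured 4.07, 4.33 and 4.40 in INV16 replicates 1 to 3 and 4.92 in replicate 4, against 5.23, 6.59, 6.58, 8.51 and 5.44 in MIB control replicates 3 to 7. The groups did not overlap (log2 difference -2.20, SE 0.54, limma adjusted p = 0.0623). Leaving out MIB control replicate 3, 6 or 7 brought it past the threshold (limma adjusted p = 0.0251, 0.0202 and 0.0395). The INV16 mean of S100a9 and that of Chil3 lay under the filter of 5.10, so both were tested only through their higher values in other arrays.

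Ffar2, which senses short-chain fatty acids and directs neutrophil migration, measured 8.45, 8.61 and 9.20 in INV16 replicates 1 to 3 and 6.64 in replicate 4. In MIB control replicates 3 to 7 it measured 9.80, 10.35, 10.62, 10.26 and 10.54. The groups did not overlap, and MIB control replicate 6 did not stand out for this gene. INV16 was 2.95-fold lower (8.75 ± 0.40, SD, n = 3, against 10.31 ± 0.32, SD, n = 5; log2 difference -1.56, SE 0.20, limma adjusted p = 0.00268). A second Ffar2 probe set differed by -1.23. The call was kept without each of the 11 arrays in turn (limma adjusted p = 0.000893 to 0.0271), and with all 12 arrays it was lost (-2.09, adjusted p = 0.0885).

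Adgrg3, also known as Gpr97, measured 9.67, 9.32 and 10.05 in INV16 replicates 1 to 3 and 6.02 in replicate 4. In MIB control it was nearly constant, at 10.90, 10.76, 10.78, 10.94 and 11.05 in replicates 3 to 7. INV16 was 2.30-fold lower (9.68 ± 0.37, SD, n = 3, against 10.89 ± 0.12, SD, n = 5; log2 difference -1.20, SE 0.14, limma adjusted p = 0.00196). The call was kept without each of the 11 arrays in turn. With all 12 arrays the difference was larger and more uneven and was not called (-2.12, limma adjusted p = 0.259).

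**Figure D2:**
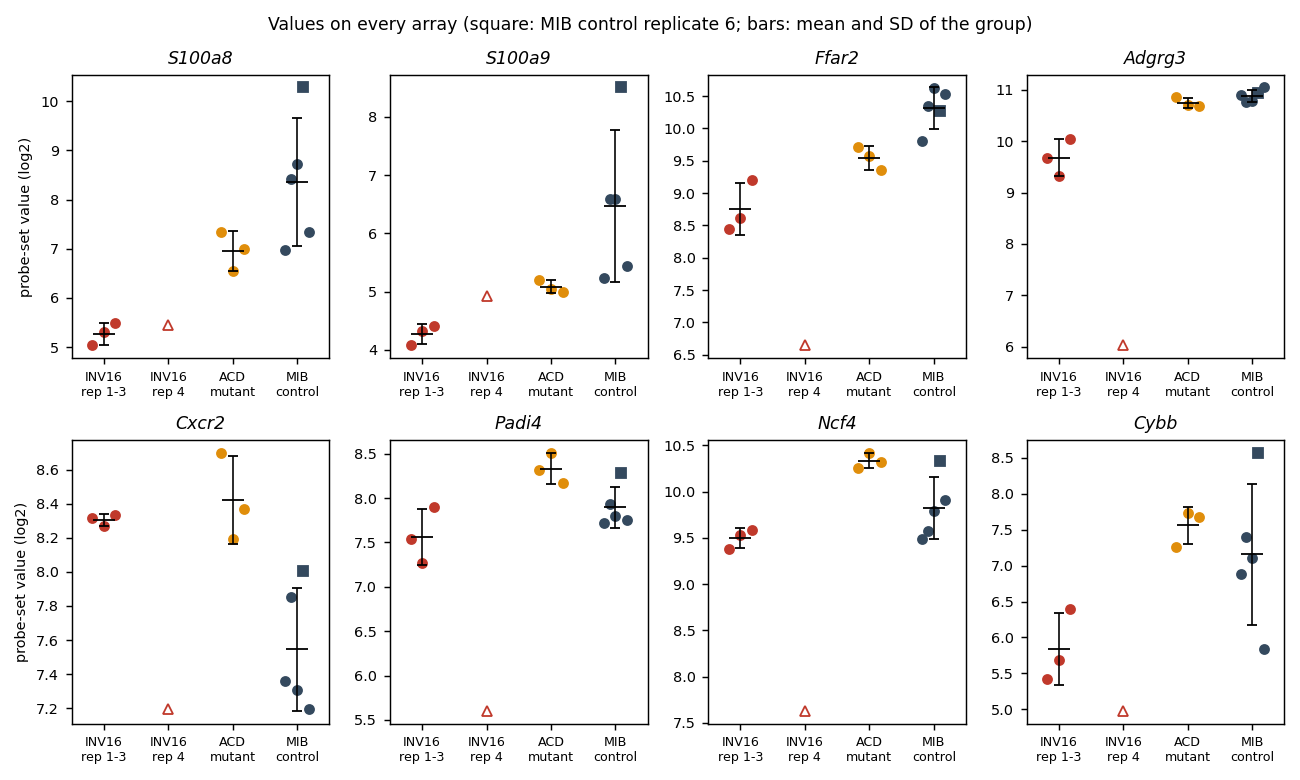
Values (log2) of 8 members on every array for INV16 replicates 1 to 3, INV16 replicate 4 (open triangle), ACD mutant and MIB control (replicate 6 as a square), with each gene on its own axis; bars give the mean and SD of groups of 3 or more arrays. The INV16 arrays lie below all MIB control arrays for S100a8, S100a9, Ffar2 and Adgrg3, and replicates 1 to 3 lie above them for Cxcr2.

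With the spike-in split as a block, all 3 genes kept the call: S100a8 at -2.77 (limma adjusted p = 0.0498), Ffar2 at -1.51 (adjusted p = 0.00847) and Adgrg3 at -1.13 (adjusted p = 0.00614). Within the batch that held 3 arrays of each group, S100a8 stayed called (-2.77, limma adjusted p = 0.0328), whereas Ffar2 (-1.51, adjusted p = 0.0531) and Adgrg3 (-1.13, adjusted p = 0.0501) did not pass. Both settings compare INV16 with the MIB control arrays of its own batch, so the differences are the same by construction. Only the measure of spread differs between them, and they are not separate checks.

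Members of the other roles mostly lay lower without passing. Of the 4 oxidase genes, 4 had differences below 0 and 0 were called by limma (2 at unadjusted p under 0.05). Cybb, the catalytic membrane chain, differed by -1.32 (SE 0.44, limma adjusted p = 0.163) and passed without MIB control replicate 7 (-1.65, adjusted p = 0.0364). Its partner Cyba differed by -0.76 (limma adjusted p = 0.123). INV16 replicates 1 to 3 had Cyba at 9.25, 9.64 and 9.51, below every MIB control array, while INV16 replicate 4, at 11.31, lay above the highest of them (10.86). The cytosolic organiser Ncf1 and the regulatory subunit Ncf4 differed by -0.41 and -0.32. The brightest Cybb probe set was used, and 2 dimmer ones differed by -0.23 and -0.06.

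Of the primary granule genes, Mpo, Prtn3 and Ctsg were bright and close between the groups, and Elane was dimmer. Mpo, myeloperoxidase, averaged 13.05 ± 0.43 on INV16 replicates 1 to 3 and 13.46 ± 0.32 on the MIB control arrays (SD, log2 difference -0.41, limma adjusted p = 0.358). The proteases proteinase 3 (Prtn3) and cathepsin G (Ctsg) differed by -0.34 and 0.14, and neutrophil elastase (Elane) by -1.27 (SE 0.42, limma adjusted p = 0.166). Elane measured 6.70, 6.59 and 8.05 in INV16 replicates 1 to 3, against 7.84, 8.47, 7.59, 9.75 and 8.25 in MIB control replicates 3 to 7, so replicate 3 of INV16 lay among the MIB control arrays. The granulocyte-monocyte progenitor marker Ms4a3 differed by -0.52 and the cathepsin inhibitor Cst7 by 0.06, and the lectin Fcnb, near the filter in every group, by -0.06.

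Specific and gelatinase granule genes were low or variable. The chitinase-like protein Chil3 measured 3.85, 3.89 and 4.33 in INV16 replicates 1 to 3 and 6.02 in replicate 4, against 4.17, 5.85, 6.23, 8.14 and 5.04 in MIB control replicates 3 to 7 (log2 difference -1.86, SE 0.63, limma adjusted p = 0.172). The antimicrobial cathelicidin Camp, the granule protein Ngp, the collagenase Mmp8, the gelatinase Mmp9 and the peptidoglycan-binding Pglyrp1 differed by -0.50 to 0.14. Lcn2, which binds bacterial iron carriers, differed by 0.43. Below the filter, lactoferrin (Ltf) averaged 4.65 in INV16 and 4.95 in MIB control, and Cd177 3.64 and 3.71.

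Among the remaining receptors, Cxcr2, which binds the neutrophil-attracting CXC chemokines, was the member with the largest difference above 0. It measured 8.31, 8.27 and 8.33 in INV16 replicates 1 to 3 and 7.20 in replicate 4, against 7.36, 7.85, 7.31, 8.01 and 7.20 in MIB control replicates 3 to 7. Replicates 1 to 3 lay above all MIB control arrays, but the difference missed the threshold (0.76, SE 0.18, limma adjusted p = 0.0561), which it passed without MIB control replicate 4 or 6 (adjusted p = 0.034 and 0.0255). The formyl peptide receptor Fpr2 and the leukotriene receptor Ltb4r1 differed by -0.69 and -0.49, and the integrin chain Itgb2l by 0.20. Padi4, which citrullinates histones, differed by -0.33, and Anxa1, an anti-inflammatory lipid-binding protein, by 0.17. In all, 5 members lay without overlap below MIB control and 1 above it, while the shares over all genes were 5.98% and 3.27%. The 5 include S100a9, which was tested only through higher values in other arrays.

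**Figure D3:**
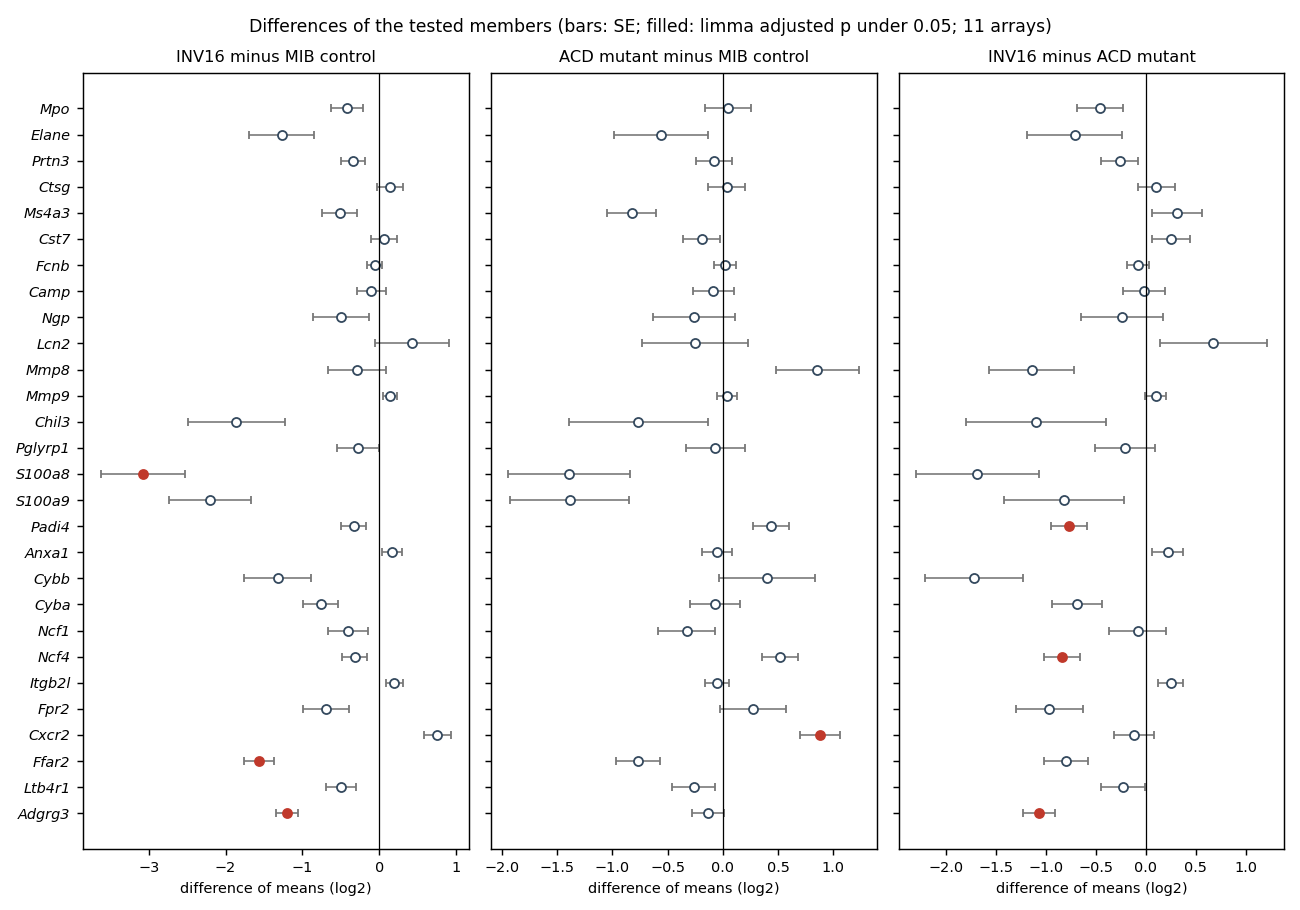
Log2 difference of group means with its SE for the 28 tested members in each comparison (left INV16 minus MIB control, middle ACD mutant minus MIB control, right INV16 minus ACD mutant; 11 arrays, each panel with its own axis). Filled points passed limma's test: S100a8, Ffar2 and Adgrg3 at the left, Cxcr2 in the middle, and Padi4, Ncf4 and Adgrg3 at the right.

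The ACD mutant was compared with the same MIB control arrays, so the 2 sets of differences share them. Cxcr2 was the single member called, at 8.70, 8.20 and 8.37 in ACD mutant replicates 1 to 3, all above the 7.20 to 8.01 of MIB control. Its mean was 8.42 ± 0.26 (SD, n = 3) in the ACD mutant and 7.55 ± 0.36 (SD, n = 5) in MIB control (log2 difference 0.88, SE 0.18, limma adjusted p = 0.0375). Over all genes 0.991% were called higher and 0.712% lower, and of the members 1 was higher and 0 lower. Without overlap, 2 members lay lower and 1 higher, beside 5.84% and 6.93% of all genes. At unadjusted p under 0.05, 4 members were higher and 4 lower, beside 10.7% and 8.86% of all genes. The Cxcr2 call was lost without INV16 replicate 1, without any 1 of the ACD mutant arrays, and without MIB control replicate 3 or 5 (limma adjusted p = 0.0526 to 0.194, differences 0.74 to 0.99). It was lost with all 12 arrays (adjusted p = 0.509), with the spike-in split as a block (0.82, adjusted p = 0.117) and within its batch (0.82, adjusted p = 0.123). The last 2 settings share the same difference by construction and differ only in the measure of spread.

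None of S100a8, Ffar2 and Adgrg3 passed the test here. S100a8 measured 7.34, 6.54 and 6.99 in the ACD mutant, overlapping the lowest MIB control values (log2 difference -1.39, SE 0.55, limma adjusted p = 0.180). S100a9, at 5.21, 5.05 and 5.00, lay just below all MIB control arrays (-1.39, limma adjusted p = 0.171). Ffar2 measured 9.72, 9.57 and 9.35 and also lay below them (-0.77, SE 0.20, limma adjusted p = 0.0642). It passed without INV16 replicate 3 (adjusted p = 0.0468) or MIB control replicate 3 (-0.90, adjusted p = 0.0376). Adgrg3 measured 10.86, 10.70 and 10.69, overlapping MIB control (-0.14, limma adjusted p = 0.678).

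With 11 arrays no oxidase or granule gene passed in the ACD mutant. Ncf4 differed by 0.52 and passed without MIB control replicate 6 (0.64, limma adjusted p = 0.0318). Cybb differed by 0.40, and Cyba and Ncf1 by -0.07 and -0.33. Mmp8 measured 7.55, 6.81 and 7.99 in the ACD mutant, against 5.91, 6.55, 6.58, 7.79 and 6.14 in MIB control replicates 3 to 7 (0.86, SE 0.38, limma adjusted p = 0.233). Ms4a3 differed by -0.83 (SE 0.22, limma adjusted p = 0.0697) and passed without MIB control replicate 7 (-0.97, adjusted p = 0.0231). Mpo, Prtn3 and Ctsg differed by -0.08 to 0.04. The median over the 28 members was -0.08, and 0.01 over all genes. A difference below 0 was found in 18 members (48.6% of all genes), and 2 members, S100a8 and S100a9, were 1 log2 or more lower (0.116% of all genes). The ACD mutant mean of S100a9 (5.08) lay under the filter of 5.10, so S100a9 was tested only through its higher MIB control values. Both genes were highest on MIB control replicate 6 (10.28 and 8.51).

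Setting INV16 against the ACD mutant addresses the assembly domain. INV16 replicates 1 to 3 and the ACD mutant lay in different spike-in batches, so these arrays give no within-batch value. The receptor Adgrg3, the oxidase subunit Ncf4 and the histone-citrullinating enzyme Padi4 were lower in INV16 in the fit without the split. Of 28 members 0 were called higher and 3 lower, beside 0.31% and 1.76% of all genes. Without overlap, 11 members lay lower in INV16 and 1 higher, beside 19.2% and 9.44% of all genes. At unadjusted p under 0.05, 9 were lower and 0 higher, beside 13.4% and 5.6% of all genes. Differences below 0 numbered 21 (54.3% of all genes), 5 of them 1 log2 or more (0.929% of all genes), and the median was -0.25, against -0.02 over all genes. S100a9 and Chil3, tested only through higher values in other arrays, are among the 11 without overlap, and Chil3 is among the 5.

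For Adgrg3 the difference was 2.10-fold (9.68 ± 0.37 in INV16, against 10.75 ± 0.10 in the ACD mutant, SD, n = 3 each; log2 difference -1.07, SE 0.16, limma adjusted p = 0.00721). This call held whichever single array of the 11 was left out. Ncf4 measured 9.38, 9.53 and 9.58 in INV16 replicates 1 to 3 and 7.63 in replicate 4, against 10.26, 10.42 and 10.32 in the ACD mutant (log2 difference -0.84, SE 0.18, limma adjusted p = 0.0351). Padi4 measured 7.53, 7.27 and 7.89 in INV16 replicates 1 to 3 and 5.60 in replicate 4, against 8.32, 8.51 and 8.17 in the ACD mutant (-0.77, SE 0.18, limma adjusted p = 0.0452). Both genes lay between these groups in MIB control, where Ncf4 averaged 9.82 ± 0.33 and Padi4 7.90 ± 0.23 (SD, n = 5 each).

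The calls of Ncf4 and Padi4 depended on single arrays, and all 3 calls on the spike-in split. Ncf4 was lost without any 1 of INV16 replicates 1 to 3, any ACD mutant array or MIB control replicate 5 (limma adjusted p = 0.0517 to 0.157). Padi4 was lost without INV16 replicate 1 or 2, any ACD mutant array or MIB control replicate 5 (adjusted p = 0.0631 to 0.196). After quantile normalisation they gave limma adjusted p = 0.0504 and 0.0821. With the spike-in split as a block over the 11 arrays, an alternative chosen after seeing the data that estimates the difference through the MIB control arrays of both batches, limma called 0 members (4 at unadjusted p under 0.05) and 0% of all genes. Adgrg3 was then at -0.88 (limma adjusted p = 0.259), Padi4 at -0.56 (adjusted p = 0.436) and Ncf4 at -0.33 (adjusted p = 0.548), so the differences of all 3 were smaller and Ncf4 lost most of its difference. With all 12 arrays the 3 genes gave adjusted p = 0.315 for Adgrg3, 0.254 for Ncf4 and 0.281 for Padi4.

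Cybb showed the widest gap of the oxidase, at 5.43, 5.69 and 6.40 in INV16 replicates 1 to 3 and 4.98 in replicate 4, against 7.27, 7.73 and 7.68 in the ACD mutant. It missed the threshold (log2 difference -1.72, SE 0.49, limma adjusted p = 0.0832) and passed without MIB control replicate 6 or 7 (adjusted p = 0.028 and 0.025). S100a8 differed by -1.69 (limma adjusted p = 0.157) and, of single arrays left out, passed without MIB control replicate 6 alone (adjusted p = 0.0452). The mean of all Cybb probe sets differed by -0.79 (limma adjusted p = 0.209). Ffar2, S100a9 and Cxcr2 differed by -0.79, -0.82 and -0.12. With the spike-in split as a block over the 11 arrays, S100a8 was at -0.91 and S100a9 at 0.03, while Cybb stayed at -1.64 (limma adjusted p = 0.430). Among granule genes, Mmp8 measured 5.71, 6.56 and 6.66 in INV16 replicates 1 to 3 and 5.53 in replicate 4, below its ACD mutant values (-1.14, limma adjusted p = 0.165). Chil3 measured 5.30, 4.52 and 5.54 in the ACD mutant, above INV16 replicates 1 to 3 (-1.10, limma adjusted p = 0.429). Fpr2 differed by -0.96 (limma adjusted p = 0.143) and passed without MIB control replicate 6 (adjusted p = 0.043). Cst7 was the member that lay higher in INV16 without overlap (0.25, limma adjusted p = 0.499).

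In the fit to these 2 groups alone, which leaves out the MIB control spread, 10 members were called, all lower in INV16, beside 5.43% of all genes called lower. S100a8 was among them (limma adjusted p = 0.00422). So were S100a9, with means of 4.27 in INV16 and 5.08 in the ACD mutant, and Chil3, with 4.02 and 5.12. Both S100a9 means lay under the filter of 5.10, so it was tested only through the MIB control arrays, which this fit leaves out. Chil3 had an INV16 mean under the filter and an ACD mutant mean just above it. It too passed the filter only with the MIB control arrays (mean 5.89). The count of 10 therefore includes S100a9 and Chil3, which were tested only because another group was high.

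Marker lists of other cell types differed unevenly between INV16 and the ACD mutant. Of 6 megakaryocyte markers tested, 6 were lower in INV16 (median log2 difference -1.41), 5 of them by 1 log2 or more, and limma called 1 lower. Of 7 mast cell and basophil markers tested, 4 were lower and 3 higher (median -0.05). In this list 3 were lower by 1 log2 or more and 0 higher, and limma called 2 lower and 0 higher. Over all genes 1.76% were called lower, and 0.929% were 1 log2 or more lower. With the spike-in split as a block over the 11 arrays, 0% of all genes were called lower. Megakaryocyte markers (6 of 7 named) had a mean level of 7.00 to 7.11 in INV16 replicates 1 to 3, 8.35 to 8.74 in the ACD mutant and 6.97 to 9.20 in MIB control. Mast cell and basophil markers (9 of 10 named) lay at 6.84 to 6.96, 7.22 to 7.37 and 6.60 to 7.34 in these groups. Monocyte and macrophage markers (9 of 10 named) lay at 6.89 to 7.43, 7.41 to 7.45 and 6.60 to 7.43, so the ranges of their mean levels overlapped. Of 7 tested, 7 were lower in INV16 than in the ACD mutant (median -0.49), beside 54.3% of all genes. Without overlap 3 of them lay lower, beside 19.2% of all genes, and limma called 0. The part of such cells in the differences was not tested.

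INV16 replicate 4 was lower by at least 1 log2 than the mean of INV16 replicates 1 to 3 for 4 of the 7 tested primary granule genes, Prtn3, Ms4a3, Ctsg and Mpo. Elane (6.66), Cst7 (10.47) and Fcnb (5.86) on that array were not. Over all roles, 12 of 28 members were at least 1 log2 lower and 3 at least 1 log2 higher there, beside 20.8% and 8.69% of all genes; with 1 array there is no test. Prtn3 measured 8.07 there against 12.87 to 13.36 on replicates 1 to 3, Ms4a3 7.32 against 11.57 to 12.35, Ctsg 9.49 against 13.27 to 13.63 and Mpo 9.90 against 12.62 to 13.48. The widest gap was that of Anxa1, at 6.79 against 11.87 to 12.13, and Ncf1 was at 6.32 against 9.93 to 11.09. By contrast Fpr2 was 2.01, Chil3 1.99 and Cyba 1.84 higher. Mast cell and basophil markers averaged 10.1 on that array, against 6.60 to 7.37 on the other 11, and primitive progenitor markers 7.53 against 9.56 to 10.2. Erythroid markers (8.06 against 4.83 to 5.39), eosinophil markers (7.12 against 5.12 to 5.56) and lymphoid markers (5.56 against 4.82 to 5.07) were also higher there. Megakaryocyte markers were lower (6.59 against 6.97 to 9.20), and monocyte and macrophage markers (6.86) lay within the range of the other arrays.

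**Figure D4:**
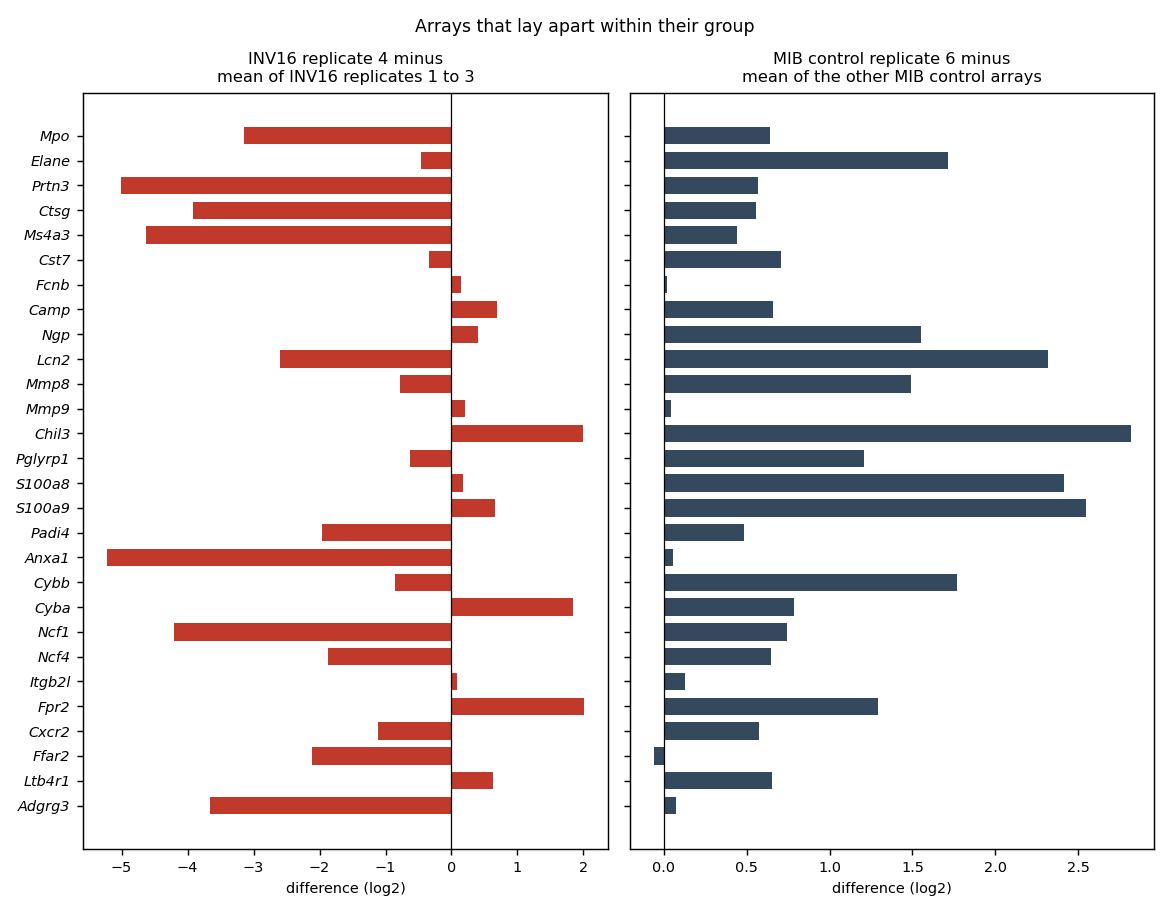
Log2 difference of INV16 replicate 4 from the mean of INV16 replicates 1 to 3 (left) and of MIB control replicate 6 from the mean of the other 4 MIB control arrays (right) for the 28 tested members. Replicate 4 is lower for Mpo, Prtn3, Ctsg, Ms4a3, Anxa1 and Ncf1, and MIB control replicate 6 is highest above its group for Chil3, S100a9, S100a8 and Lcn2.

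Within MIB control the members' median SD over the 5 arrays was 0.37, against 0.18 over all genes tested, and 4 of 28 had an SD of 1 or more (0.147% of all genes). Replicate 6 lay 2.82 above the mean of the other 4 arrays for Chil3, 2.55 for S100a9, 2.41 for S100a8 and 2.32 for Lcn2. Cybb, Elane, Ngp, Mmp8, Fpr2 and Pglyrp1 were 1.21 to 1.77 higher. Ffar2, Adgrg3, Anxa1, Mmp9 and Fcnb differed by -0.06 to 0.07 on that array, so that array was not high for every member.

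Other genes of the pathway gave few calls. Of 18 tested neutrophil genes outside the list, 0 were called by limma in INV16 against MIB control (4 at unadjusted p under 0.05), 0 in the ACD mutant against MIB control (4) and 0 in INV16 against the ACD mutant (4). The 4 other oxidase genes tested gave 0 calls in each comparison (1, 1 and 0 at unadjusted p under 0.05). Among 11 granulocyte transcription factors, 0 were called higher and 2 lower in INV16 than in MIB control, beside 0.627% and 1.07% of all genes. The 2 factors were Runx3 (-1.65, limma adjusted p = 0.00196) and Cebpa, the factor that starts granulocyte differentiation (-0.91, limma adjusted p = 0.0477). Against the ACD mutant, 0 were higher and 2 lower in INV16, beside 0.31% and 1.76% of all genes. These were Runx3 (-1.49, limma adjusted p = 0.00611) and the monocyte factor Irf8 (-1.50, limma adjusted p = 0.0259). With the spike-in split as a block over the 11 arrays, 0% of all genes were called lower in this comparison, so both calls were lost. With all 12 arrays, 1 of the 11 factors was called in INV16 against MIB control and 0 in INV16 against the ACD mutant. In the ACD mutant against MIB control 0 of the 11 were called, with 4 at unadjusted p under 0.05.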

How the data were processed

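Values were read from the authors' deposited table of 45101 probe sets for 12 arrays. They are log2 values by their range (2.82 to 14.97), already summarised and scaled by the authors; background correction, normalisation and summarisation are not given in the sources used here. Per the labels' protocols, RNA was amplified by repeated cDNA synthesis and labelled with biotin. Array medians lay between 5.62 and 5.79.

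Gene symbols came from the platform's annotation (34945 with 1 symbol, 932 with several, 9224 with none). The 64 control sets were left out of the 34945, of which 34741 were matched by Entrez identifier to RefSeq. Those with a mean over the 12 arrays above the 40th percentile (5.10) were kept, with the brightest set per gene, giving 12918 genes. Columns of samples left unused numbered 0.

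Limma (version 3.58.1, R 4.3.3) fitted a mean per group to 11 arrays leaving out INV16 replicate 4 (degrees of freedom 8 residual, 5.04 prior), two-sided, with Benjamini-Hochberg adjustment over 12918 genes and a threshold of 0.05. The script was tested on simulated data. Members, lists and tests were chosen with earlier results of these data known. All 36 members were named by the rule; sequences were shown for called members, S100a9 and the granule proteases. Proteins were not used here.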

Additional observations from a re-analysis of the deposited data

Results flagged for a closer look

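Each member was examined for an array far from the others in INV16 (4 arrays) and MIB control (5 arrays), 60 groups in all. Of the 11 such arrays found, 7 were INV16 replicate 4, the array already set apart. Chance gives about 1 in 20 for independent groups. Members measured on the same array are not independent, so the count cannot be read as an excess over chance. INV16 replicate 4 was far below the other INV16 arrays for Prtn3 (8.07), Ctsg (9.49), Ms4a3 (7.32), Anxa1 (6.79), Ncf4 (7.63) and Cxcr2 (7.20), and far above them for Fpr2 (7.24). INV16 replicate 3 was far above the others for Elane (8.05 against 6.59 to 6.70), and INV16 replicate 1 below them for Cd177 (3.48 against 3.72), which lies below the filter. In MIB control, replicate 6 was far above the others for Lcn2 (9.20 against 6.63 to 7.14) and replicate 7 below them for Anxa1 (11.49 against 11.89 to 12.03).

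The effects of INV16 and of the ACD mutant, each against MIB control, differed for 3 members by limma's test of INV16 minus ACD mutant without INV16 replicate 4: Adgrg3 (-1.07, adjusted p = 0.00721), Ncf4 (-0.84, adjusted p = 0.0351) and Padi4 (-0.77, adjusted p = 0.0452). With the spike-in split as a block over the same 11 arrays 0 of them passed (adjusted p = 0.259, 0.548 and 0.436).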

How the results depend on the processing

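With all 12 arrays limma called 0 of 28 members in each comparison (8 at unadjusted p under 0.05 in INV16 against MIB control, 3 in the ACD mutant against MIB control, 8 in INV16 against the ACD mutant), and over all genes 20, 0 and 5, against 219, 220 and 267 with 11 arrays. INV16 against MIB control gave 3 members under 6 of the other settings, 1 within the spike-in batch, and 2 to 5 when single arrays were left out. The ACD mutant against MIB control gave 0 in the 2-group fit, 0 with the spike-in split as a block, 0 within its batch (8, 8 and 9 at unadjusted p under 0.05) and 0 to 2 without single arrays. INV16 against the ACD mutant gave 1 after quantile normalisation, 10 in the 2-group fit (840 of all genes), 0 with the spike-in split as a block over all 12 arrays (13 at unadjusted p under 0.05), 0 with that block over 11 arrays (4 at unadjusted p under 0.05, 0 of all genes; chosen after seeing the data) and 1 to 6 without single arrays. The causes were not tested. Replicate numbers did not pair the arrays: deviations of same-numbered arrays correlated at -0.33 to 0.09, and 0 of 6 INV16 and ACD mutant arrays correlated best with their own number. With the replicate number as a block the counts were 0, 0 and 7 in the order above (8, 7 and 14 at unadjusted p under 0.05), with 1, 24 and 380 over all genes. Of 1650 differences of single members under an alternative, 1574 kept their side of the threshold, 48 lost a call, 28 gained 1 and 0 reversed a called direction. The 1574 include members called neither with 11 arrays nor under the alternative, so this number does not measure how stable the calls were. All 48 losses came from the 3, 1 and 3 calls made with 11 arrays. Each of these calls had 11 alternatives that left out 1 array and 9 others.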
